A study of Mus musculus with 12 samples.

Results

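The genes described are 9 of the 24421 in the count table: Arid1a, Arid1b, Dpf1, Dpf2, Dpf3 and Ss18, which encode subunits of the canonical BAF complex, and Smarcd1, Smarcd2 and Smarcd3, the SMARCD paralog genes. They were chosen by the place of their products in the complex, with earlier results of these data known. Their transcripts were measured by RNA-seq in 12 libraries of mouse embryonic stem (mES) cells of strain B6 grown in 2i+LIF, a medium with inhibitors of MEK and GSK3 and the cytokine LIF. All libraries, the controls included, came from Brg1 dTag knock in cells, a line that was derived from single-cell colonies and carries the FKBP12 F36V degron at Brg1. The small molecule dTAG13 directs the tagged BRG1 protein to the proteasome, and the doses, each given for 24 h, were 0.3, 1, 3, 10 and 100 nM beside the vehicle alone (0 nM). Each of the 6 conditions had 2 libraries. The comparisons ask whether, and for which paralogs, the transcripts of BRG1's partner subunits moved as the dose rose.

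The mammalian SWI/SNF remodelers slide and evict nucleosomes with the ATPase BRG1 or its paralog BRM. They form canonical BAF (cBAF), PBAF and non-canonical BAF (ncBAF), which share a core and differ in accessory subunits. ARID1A or ARID1B and a DPF protein mark cBAF, in which ARID1 proteins hold the core and the ATPase module together and DPF proteins read acylated histone tails with a pair of PHD fingers. SS18 sits in the ATPase module of cBAF but is also found in ncBAF, and each complex holds a SMARCD protein, one of the first pieces of the core to be assembled, so neither the Ss18 nor the SMARCD transcripts are particular to cBAF.

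Total counts were 4663484 to 6375582 per library, and the ribosomal transcript Rn45s took 10.5 to 19.4% of them. The labels do not say whether the 2 libraries of a condition came from separate cultures. The study's legends describe its expression values by dose as coming from 2 independent experiments. The p-values measure the spread between these libraries. All 7 markers of mES cells (Pou5f1, Sox2, Nanog, Esrrb, Zfp42, Tfcp2l1 and Klf4) were over 1 RPKM in every library. The summed level of 3 trophectoderm markers (Cdx2, Elf5 and Gata3) ran from 1.54 to 2.45 RPKM in the controls and from 5.15 to 5.71 RPKM at the top dose. The summed levels of 3 more marker lists were also higher at the top dose without overlap, at 0.934 to 1.01 against 1.56 to 1.91 RPKM for primitive endoderm, 13 to 15.8 against 18.4 to 19.5 RPKM for mesoderm and 3.30 to 3.41 against 4.40 to 4.66 RPKM for neural cells, whereas those of primed epiblast and fibroblasts overlapped. Of all single genes tested, 61.7% did not overlap between these doses either. Every primitive endoderm marker stayed under 1 RPKM, and the neural marker Sox1 alone ran from 3.13 to 4.29 RPKM over the 12 libraries. The trophectoderm marker Elf5 reached at most 0.153 RPKM and the mesoderm marker Mesp1 at most 0.455 RPKM, so their lists' sums rest on the other markers. No marker was at 0 in all 12 libraries, and the part of other cell states in the changes below was not tested. In bulk libraries, fewer cells with a transcript and less of it per cell cannot be told apart. The targeted gene Smarca4, which encodes BRG1, gives no check of the treatment, since the degron acts on the protein. Its transcript went from 63.9 ± 0.503 RPKM in the controls to 71.3 ± 0.0942 RPKM at the top dose (SD, n = 2). The descriptions number the libraries of 0.3 and 3 nM in another run of index numbers than the 8 libraries of the other doses. The fold change of 3 nM against 0.3 nM thus compares libraries within the smaller run of 4 and sets none against a control. Its SE and p still rest on the spread shared by all 12 libraries, the controls included.

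The 9 transcripts are described here in 4 tiers, in order of their level per length at 0 nM. The tiers do not follow every gap between the ranges given below. RPKM is the count divided by the exon length in kb and by the TMM-scaled library size. Smarcd1, Arid1a and Ss18 were highest at 0 nM, with 48.3 ± 1.72, 46.6 ± 0.0208 and 40.0 ± 1.2 RPKM (SD, n = 2). Smarcd2 at 18.7 ± 0.112 and Dpf2 at 16.9 ± 1.28 RPKM followed. Smarcd3 at 9.19 ± 1.65, Dpf1 at 6.11 ± 0.649 and Arid1b at 4.79 ± 0.152 RPKM were lower, and Dpf3 was near the limit of detection at 0.0431 ± 0.0610 RPKM. Neighbours within a tier were not always separated: Smarcd1 exceeded Arid1a in 3 of 12 libraries and Smarcd3 exceeded Dpf1 in 5 of 12, whereas Smarcd2 exceeded Dpf2 in 11 of 12 and Arid1a exceeded Ss18 in 12 of 12. The ranges over the 12 libraries did not overlap between Ss18 and Smarcd2, between Dpf2 and Smarcd3, between Dpf1 and Arid1b, or between Arid1b and Dpf3.

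**Figure D1:**
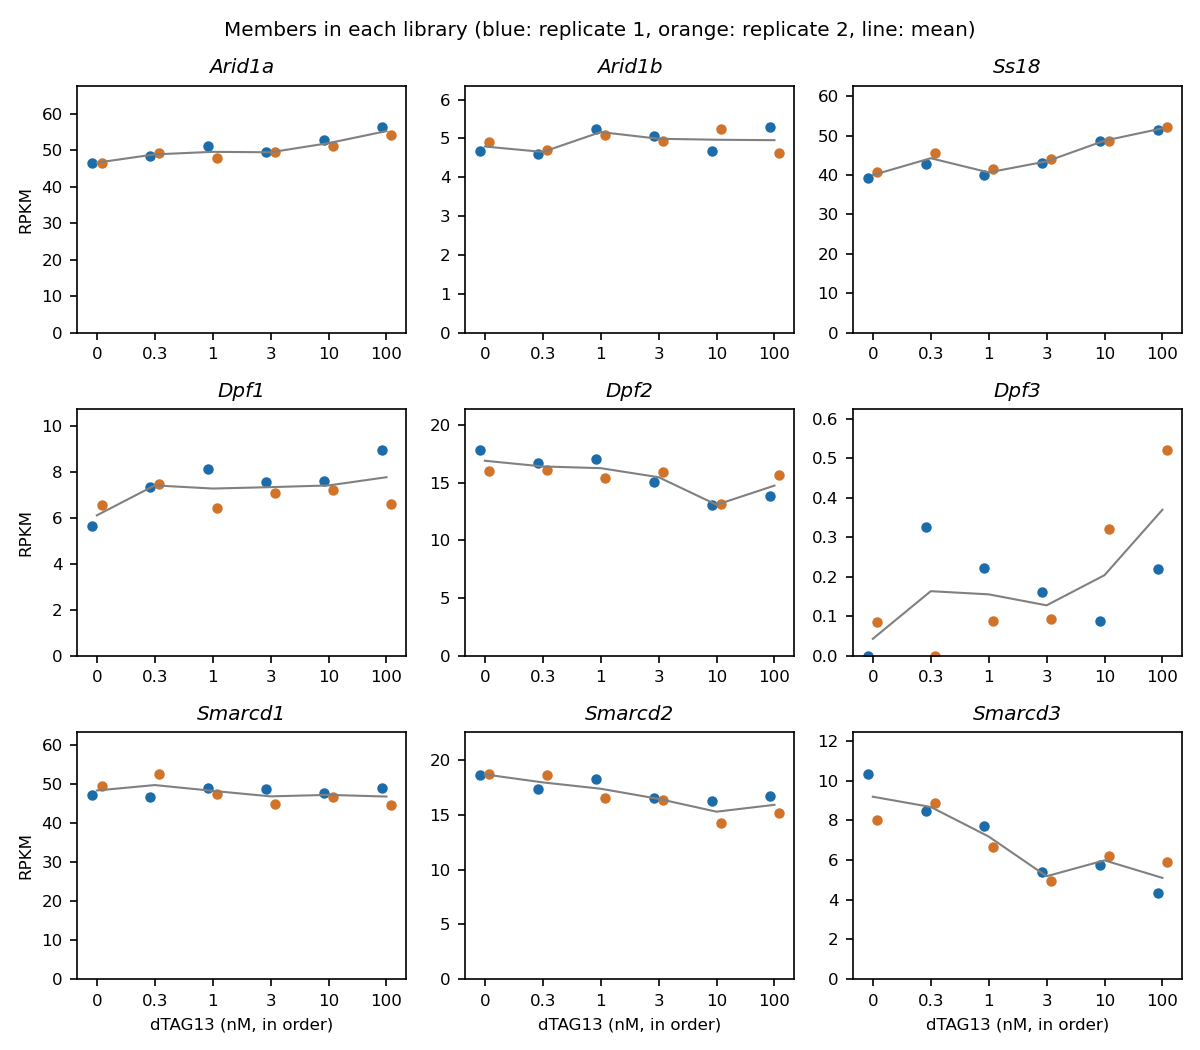
Level of each of the 9 genes (RPKM, vertical axes from 0, each with its own scale) in the 12 libraries against dTAG13 dose (nM, in order and not to scale), with blue and orange points for the replicates and a line through their mean. Smarcd3 falls from 9.19 to 5.10 RPKM, Ss18 rises from 40.0 to 51.8 RPKM, and Arid1b and Smarcd1 keep overlapping points at 0 and 100 nM.

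At 100 nM, the transcripts of Smarcd3 fell and those of Arid1a, Ss18 and, from very few counts, Dpf3 rose, while Smarcd1, the most abundant SMARCD transcript, and Arid1b did not pass the test. This made 4 of 9 genes, 3 higher and 1 lower, at a Benjamini-Hochberg adjusted p under 0.05 in edgeR's quasi-likelihood test. Among the 11378 genes tested, 23.4% passed, 10.1% as higher and 13.3% as lower. For Dpf3, whose test came from a fit of all 23204 genes with a count because it missed the filter of 1 RPKM that the 8 other genes passed, the share of genes called higher was 6.77%. Smarcd3 and Dpf3 also had a fold change over 1.5. The median log2 fold change of the 9 genes was 0.05, beside 0 over all genes tested. In 7 of 9 genes the 100 nM libraries did not overlap with the 0 nM libraries, 4 above and 3 below. This was also so for 61.7% of the 11378 genes tested, so such separation was common. Dpf3 is counted in the 7 but, having missed the filter, is not among those 11378.

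Calls appeared as the dose rose. At 0.3 nM, 0 of 9 genes were called, beside 0.0703% of all genes; 1 of the 9 had an unadjusted p under 0.05, and DESeq2's Wald test and all other alternatives also called 0. At 1 nM, 0 were called, beside 2.29% of all genes, with 0 at an unadjusted p under 0.05 and 0 by DESeq2 and all other alternatives. At 3 nM only Smarcd3 was called, as lower, beside 5.25% of all genes called lower. At 10 nM Ss18 and Arid1a were called higher, beside 7.87%, and Smarcd3 and Dpf2 lower, beside 10.1%. The comparisons with 0 nM share the same pair of control libraries and are not independent. In a test for a steady slope over the order of the 6 doses, 5 of 9 genes were called, beside 29.3% of all genes. Ss18 and Arid1a rose, beside 13.6% of all genes, and Smarcd3, Dpf2 and Smarcd2 fell, beside 15.7%. Of all genes called, 43.9% at 10 nM and 46.4% over the dose order were higher, and 55.3% and 58.5% without normalization factors.

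**Figure D2:**
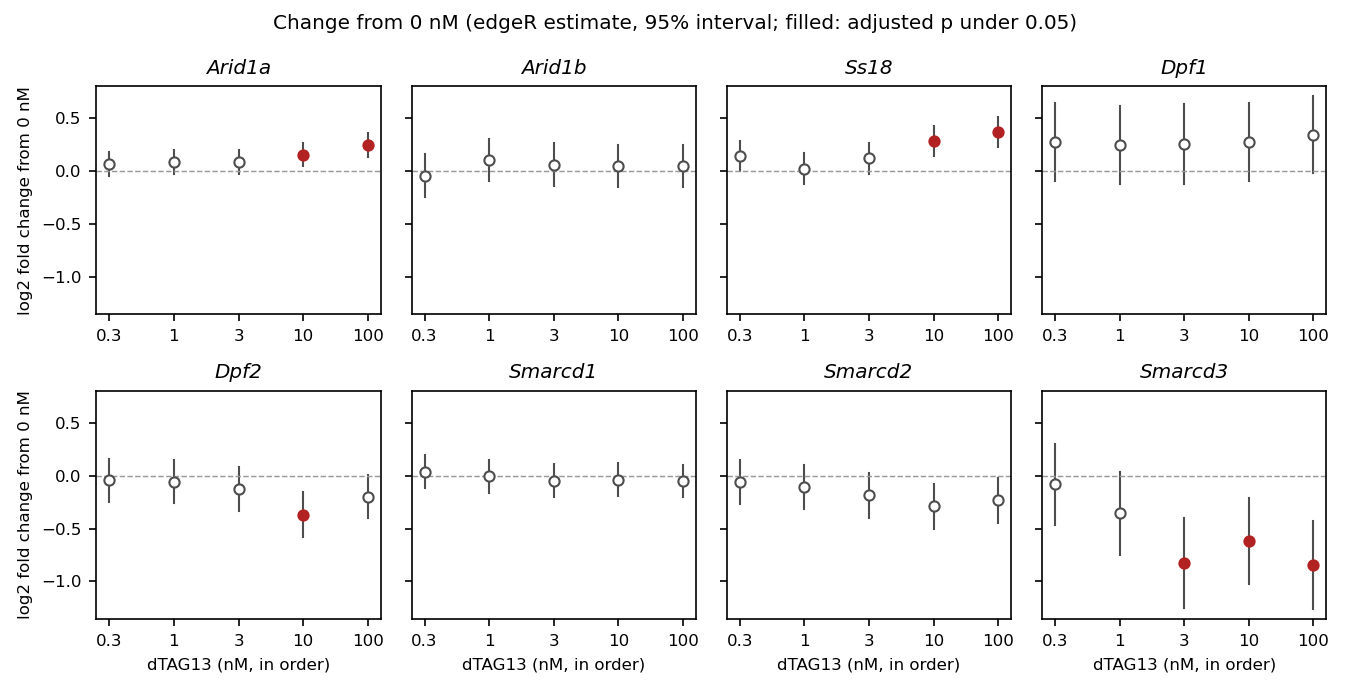
Log2 fold change from 0 nM (vertical axis, edgeR estimate with its 95% interval) at each dTAG13 dose (nM, in order) for the 8 genes over the filter, with filled points at an adjusted p under 0.05. Smarcd3 is filled from 3 nM upwards, Ss18 and Arid1a from 10 nM upwards, and Dpf2 at 10 nM alone. All points are read against the same 2 control libraries.

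The SMARCD proteins bind the SMARCC scaffold and offer surfaces for transcription factors. SMARCD1 is the paralog of ncBAF, while SMARCD3, also called BAF60C, is best known from heart and muscle and SMARCD2 from blood granulocytes. Because Smarcd3 fell with dose beside Smarcd1 and Dpf2 fell as well, the promoter windows of these genes are shown, 250 bases before to 50 after the RefSeq start on GRCm38.p6 (mm10), 5′ to 3′ on the gene's strand. The start in each window is the first base of the gene as counted. Capitals mark the GC box letters GGGCGG or CCGCCC and the CCAAT box letters CCAAT or ATTGG, each read on both strands.
Smarcd3, minus strand, chr5:24601953-24602252: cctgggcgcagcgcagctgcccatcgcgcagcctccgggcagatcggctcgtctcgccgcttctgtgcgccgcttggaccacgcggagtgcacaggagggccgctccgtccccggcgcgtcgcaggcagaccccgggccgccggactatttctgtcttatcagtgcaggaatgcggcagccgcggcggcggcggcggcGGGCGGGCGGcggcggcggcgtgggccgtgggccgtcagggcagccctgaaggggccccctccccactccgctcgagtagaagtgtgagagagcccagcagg
Smarcd1, plus strand, chr15:99702037-99702336: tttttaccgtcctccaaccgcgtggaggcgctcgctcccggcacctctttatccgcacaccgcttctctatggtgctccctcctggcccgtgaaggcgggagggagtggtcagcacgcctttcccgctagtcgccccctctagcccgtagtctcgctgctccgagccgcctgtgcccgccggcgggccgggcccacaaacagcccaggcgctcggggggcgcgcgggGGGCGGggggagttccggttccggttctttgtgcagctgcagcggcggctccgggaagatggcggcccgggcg
Dpf2, minus strand, chr19:5912822-5913121: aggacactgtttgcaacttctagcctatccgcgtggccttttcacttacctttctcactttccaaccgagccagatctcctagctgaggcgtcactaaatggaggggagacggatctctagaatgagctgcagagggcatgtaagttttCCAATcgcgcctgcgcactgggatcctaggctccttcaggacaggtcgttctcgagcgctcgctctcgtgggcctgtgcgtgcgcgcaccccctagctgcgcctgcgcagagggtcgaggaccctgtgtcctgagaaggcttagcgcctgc

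The Smarcd3 window held 40 CpG dinucleotides and 2 overlapping GC boxes, the Smarcd1 window 35 CpG and 1 GC box, and the Dpf2 window 20 CpG, 0 GC boxes and 1 CCAAT box. Of the 32851 promoter windows in the table, 35.7% held a GC box and 37.4% a CCAAT box, and the median was 7 CpG. The TATA letters TATAAA or TTTATA were in none of these windows and in 13.6% of all. Both Smarcd1, which did not pass the test, and Smarcd3, which fell, thus had CpG-rich windows. The table held a window for 8 of 9 genes, and those of Smarcd2 and Arid1a belonged to other starts than the ones counted.

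Smarcd3 had the largest fall of the 8 genes over the filter at 100 nM. Its 0 nM libraries stood at 10.4 and 8.02 RPKM, those of 0.3 nM at 8.49 and 8.85, and those of 1 nM at 7.71 and 6.66 RPKM. The 3 nM pair measured 5.41 and 4.95, the 10 nM pair 5.75 and 6.21, and the 100 nM pair 4.32 and 5.88 RPKM. Every library of 3 nM and above lay below every library of 0, 0.3 and 1 nM, and 0.3 nM lay within the control range. From 0 nM it fell by 0.83 on the log2 scale at 3 nM (SE 0.21, adjusted p = 0.0105), 0.62 at 10 nM (SE 0.20, adjusted p = 0.0300) and 0.84 at 100 nM (SE 0.20, adjusted p = 0.00274, edgeR quasi-likelihood test). The estimates for 0.3 and 1 nM were -0.08 and -0.35, with 95% intervals of -0.47 to 0.30 and -0.75 to 0.04.

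Between the doses of the other run of index numbers, Smarcd3 was lower at 3 nM than at 0.3 nM by a log2 fold change of -0.74 (SE 0.21, adjusted p = 0.0354, edgeR). It was the only one of the 9 genes called there, beside 2.88% of all genes called lower, and 1 had an unadjusted p under 0.05. The spread in this test came from all 12 libraries. A pairwise fit of these 4 libraries alone gave -0.74 and no call (adjusted p = 0.0553, edgeR). Without normalization factors the adjusted p was 0.0722 (edgeR). The slope over the 6 doses was -0.18 per step (SE 0.035, adjusted p = 0.000299, edgeR), and this call held under all 24 alternatives, with an adjusted p of 4.01e-06 to 0.00319. The single-dose calls rested on few libraries. With 0 nM replicate 1 left out, the adjusted p (edgeR) was 0.0702 at 100 nM and 0.154 at 3 nM. Leaving out 100 nM replicate 1 gave 0.0731 at 100 nM, and leaving out 3 nM replicate 2 gave 0.0892 at 3 nM. For 3 nM against 0.3 nM it was 0.0878 to 0.197 when any of the 4 libraries was left out. At 10 nM it was 0.286 without 0 nM replicate 1, and 0.137 and 0.0802 without either library of that dose. DESeq2's Wald test also called Smarcd3 at 100 nM but not at 3 nM (adjusted p = 0.0514), at 10 nM (0.134) or for 3 nM against 0.3 nM (0.152).

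Smarcd3 also had the fewest counts of the 8 genes, 45 to 104 per library over 1725 bases of exon, and 642 of these bases overlap an exon of Chpf2 on the opposite strand in GENCODE vM21. Chpf2, which encodes a chondroitin polymerizing factor, is counted in the deposited table only over exons that end before the overlap, and counting ignored strand, so reads of a longer Chpf2 transcript would be counted for Smarcd3. The control libraries held 44 and 46 counts of Chpf2 and the 100 nM libraries 24 and 25, and its log2 fold change was -0.90 (SE 0.29, adjusted p = 0.0285, edgeR). At its own density over its 3717 counted bases, the overlap would hold 4.51 to 13% of the Smarcd3 counts of a library. Chpf2 moved in the same direction as Smarcd3, and its part in the change beyond this share was not tested.

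Smarcd2 declined by less. The control libraries stood at 18.6 and 18.8 RPKM, the 0.3 nM libraries at 17.3 and 18.6, and the 1 nM libraries at 18.2 and 16.5 RPKM. The 3 nM pair measured 16.6 and 16.4, the 10 nM pair 16.3 and 14.3, and the 100 nM pair 16.7 and 15.2 RPKM. All 10 treated libraries lay below both control libraries, the nearest by a small margin. The slope was -0.06 per step on the log2 scale (SE 0.017, adjusted p = 0.0153, edgeR) and passed the test. The single doses did not: the log2 fold change was -0.29 at 10 nM (adjusted p = 0.0534) and -0.23 at 100 nM (95% interval -0.44 to -0.02, adjusted p = 0.106, edgeR). The slope call was lost in 2 of 24 alternatives, without normalization factors (adjusted p = 0.0808) and in the 8 libraries of 0, 1, 10 and 100 nM alone (adjusted p = 0.0515).

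Smarcd1 showed no called change at any dose. The control libraries stood at 47.1 and 49.5 RPKM and the 100 nM libraries at 49.0 and 44.5 RPKM, so that the groups overlapped. Over all 12 libraries it ran from 44.5 to 52.7 RPKM. Its estimate for 100 nM was -0.05 on the log2 scale, with a 95% interval of -0.20 to 0.11, and the slope was -0.01 per step (95% interval -0.04 to 0.01, adjusted p = 0.419, edgeR). Falls of the size seen for Smarcd3 lay outside that interval. Of its 3153 exon bases, 183 overlap the opposite-strand gene Gm34939 and 176 the opposite-strand gene Gm17349 in GENCODE. The same held for 96 bases of Dpf1 (Gm44632) and 50 of Dpf2 (Gm42067).

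The ARID1 genes encode the largest cBAF subunits, and ARID1A and ARID1B exclude each other from a complex. Arid1a rose by a small amount. Its control libraries were nearly equal at 46.5 and 46.6 RPKM, the 0.3 nM pair measured 48.4 and 49.3, the 1 nM pair 51.1 and 48.0, and the 3 nM pair 49.4 and 49.4 RPKM. The 10 nM libraries stood at 52.8 and 51.1 RPKM and the 100 nM libraries at 56.3 and 54.1 RPKM. All 10 treated libraries lay above both controls, and the 100 nM libraries were the highest pair. At 100 nM the rise was 0.25 on the log2 scale (SE 0.054, adjusted p = 0.00134, edgeR), or 18.6%, and the slope was 0.04 per step (SE 0.0095, adjusted p = 0.00123). The call at 100 nM held in all 22 alternatives, and that for the slope in 23 of 24, with an adjusted p of 0.0771 where the scaling used all genes with a count. That at 10 nM, a log2 fold change of 0.16 (adjusted p = 0.0466, edgeR), was lost in 19 of 22, where the adjusted p ran up to 0.290.

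Arid1b stayed low and passed no test. The control libraries stood at 4.69 and 4.90 RPKM, the 100 nM libraries at 5.29 and 4.62 RPKM, and its 12 libraries ran from 4.59 to 5.29 RPKM. The controls lay within the range of the 100 nM libraries. Its log2 fold change at the top dose was 0.05 (95% interval -0.15 to 0.25, adjusted p = 0.780, edgeR) and changed sign without 100 nM replicate 1 (-0.05). The level of Arid1a was 9.72 ± 0.303 times that of Arid1b in the controls and 11.2 ± 0.764 times at the top dose (SD, n = 2).

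Among the DPF genes, Dpf2, which encodes the broadly expressed paralog, fell, while Dpf1 and Dpf3, whose products are best known from neurons and from heart and muscle, were low or nearly silent. The control libraries of Dpf2 stood at 17.8 and 16 RPKM, those of 0.3 nM at 16.7 and 16.1, and those of 1 nM at 17.1 and 15.4 RPKM. The 3 nM pair measured 15.1 and 15.9, the 10 nM pair 13.1 and 13.1, and the 100 nM pair 13.8 and 15.7 RPKM. The lowest pair was that of 10 nM, and the 100 nM libraries were higher again but below both controls. It fell by 0.37 on the log2 scale at 10 nM (SE 0.10, adjusted p = 0.0127, edgeR), and the estimate for 100 nM was -0.20 (95% interval -0.40 to 0.01, adjusted p = 0.174, edgeR). The slope was -0.06 per step (SE 0.018, adjusted p = 0.0210, edgeR).

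These Dpf2 calls depended on single libraries. Without 0 nM replicate 1, the adjusted p (edgeR) was 0.141 at 10 nM and 0.0767 for the slope. Leaving out either 10 nM library gave 0.0526 and 0.0528 at 10 nM, and leaving out 10 nM replicate 1 or 100 nM replicate 1 gave 0.0503 and 0.0551 for the slope. The slope was also over the threshold in the 8 libraries of 0, 1, 10 and 100 nM alone (adjusted p = 0.0600, edgeR) and without normalization factors (0.0836), and DESeq2's Wald test gave 0.0607 at 10 nM.

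Dpf1 had 75 to 123 counts per library and passed no test. The control libraries stood at 5.65 and 6.57 RPKM and the 100 nM libraries at 8.94 and 6.60 RPKM, so that the groups did not overlap but a treated library lay close to a control. The log2 fold change at 100 nM was 0.34, with a 95% interval of -0.02 to 0.71 (adjusted p = 0.175, edgeR), and it ran from 0.25 to 0.28 at the 4 lower doses. Rises of the size seen for Arid1a and Ss18 lay within this interval.

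Dpf3 had 47 counts in all 12 libraries together. The control libraries had 0 and 2 counts, and those of 0.3 nM had 7 and 0, those of 1 nM 5 and 2, and those of 3 nM 3 and 2. The 10 nM libraries had 2 and 7 counts and the 100 nM libraries 5 and 12. The sums of 17 counts at 100 nM and 2 at 0 nM give a ratio of 8.37 per library size, with a 95% counting interval of 1.99 to 74.7 (exact, counting error only). The edgeR fit of all genes with a count gave an adjusted p of 0.0410 at 100 nM and 0.0939 for the slope. The call at 100 nM was lost in 6 of 21 alternatives, among them without 0 nM replicate 1 (adjusted p = 0.328) and without 100 nM replicate 2 (0.443), without either 10 nM library (0.0512 and 0.0515) and in a pairwise fit (0.190). Only 5 libraries had more than 3 counts, so the level stayed near the floor at every dose.

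Ss18 encodes a small subunit that is fused to an SSX protein in synovial sarcoma. It had the largest rise of the 8 genes over the filter that passed the test. The control libraries stood at 39.2 and 40.8 RPKM, those of 0.3 nM at 42.9 and 45.6, and those of 1 nM at 39.9 and 41.4 RPKM. The 3 nM pair measured 42.9 and 43.9, the 10 nM pair 48.7 and 48.7, and the 100 nM pair 51.5 and 52.1 RPKM. The libraries of 10 and 100 nM were the 4 highest, whereas those of 1 nM overlapped with the controls. It rose by 0.28 on the log2 scale at 10 nM (SE 0.069, adjusted p = 0.00462) and 0.37 at 100 nM (SE 0.069, adjusted p = 0.000187, edgeR), a rise of 29.6%. The slope was 0.07 per step (SE 0.013, adjusted p = 0.000368, edgeR). The calls at 100 nM and for the slope held in every alternative tried (22 and 24), and that at 10 nM was lost without 0 nM replicate 1 (adjusted p = 0.0667). Both 100 nM libraries also lay above both 10 nM libraries, a difference that was not tested.

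The shares of each paralog in its family's summed RPKM describe how these moves add up, and carry no test. Smarcd3 made up 12.1 ± 2.2% of the SMARCD sum in the controls, 9.85 ± 0.598% with 1 nM dTAG13, 7.56 ± 0.129% with 3 nM, 8.74 ± 0.719% with 10 nM and 7.57 ± 1.98% with 100 nM (SD, n = 2). Smarcd1 made up 63.4 ± 2.11% at 0 nM and 69.0 ± 1.5% at 100 nM, and Smarcd2 24.5 ± 0.0887% and 23.5 ± 0.479%. The SMARCD sum went from 76.2 ± 0.183 to 67.8 ± 3.20 RPKM, so that Smarcd1 gained in share without a rise in its own level.

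Dpf2 went from 73.3 ± 3.74% of the DPF sum at 0 nM to 63.2 ± 0.485% at 10 nM and stood at 64.5 ± 6.11% at 100 nM, where the libraries were 60.1 and 68.8%. The DPF sum itself went from 23.1 ± 0.567 to 22.9 ± 0.117 RPKM. Arid1a held 90.7 ± 0.264% of the ARID1 sum at 0 nM and 91.8 ± 0.516% at 100 nM. The major paralog of each family was thus the same at all doses.

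**Figure D3:**
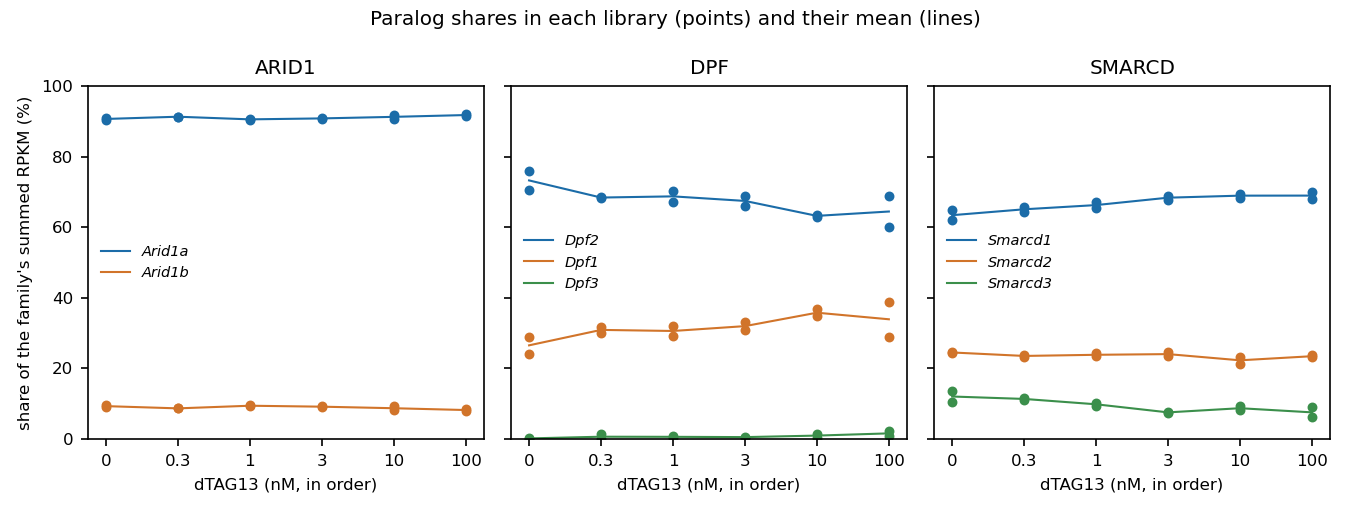
Share of each paralog in the summed RPKM of its family (percent, vertical axis from 0 to 100) at each dTAG13 dose (nM, in order), with a point for each library and a line through the mean. The Smarcd3 share goes from 12.1% at 0 nM to 7.57% at 100 nM, and Arid1a stays over 90% of the ARID1 sum in every library.

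Of the 20 other mSWI/SNF subunit genes, 6 were higher at 100 nM and 1 lower, beside the 10.1% and 13.3% of all genes, and their median log2 fold change was 0.19. The SMARCC scaffold genes that bind SMARCD proteins were among those that rose, Smarcc1 by a log2 fold change of 0.15 (adjusted p = 0.0469) and Smarcc2 by 0.36 (adjusted p = 0.0146, edgeR). Actl6a, an actin-related subunit of the ATPase module, rose by 0.31 (adjusted p = 0.00134), as did Bcl7c, which encodes a small subunit of the BCL7 family, by 0.51 (adjusted p = 0.0263) and Phf10 by 0.38 (adjusted p = 0.00556, edgeR). PHF10 is the PBAF counterpart of the DPF proteins. Smarca4 rose by 0.16 (adjusted p = 0.0389, edgeR), and Actb, the gene of beta-actin, fell by 0.28 on the log2 scale (adjusted p = 1.98e-05, edgeR). Whether the calls of these 20 genes held under the alternatives was not examined, and those of Smarcc1 and Smarca4 lay near the threshold.

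Over the dose order, 4 of these 20 rose (Smarcc2, Actl6a, Bcl7c and Phf10, by 0.09, 0.06, 0.10 and 0.06 per step on the log2 scale, adjusted p = 0.000699, 0.000420, 0.00578 and 0.00422 in edgeR) and Actb fell by 0.07 per step (adjusted p = 3.12e-06). None of the fold changes of the 20 that passed the test at 100 nM was over 1.5. Smarca2, which encodes BRM, went from 0.995 ± 0.348 to 0.771 ± 0.0260 RPKM (SD, n = 2), and its log2 fold change was -0.36 with a 95% interval of -0.98 to 0.25.

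**Figure D4:**
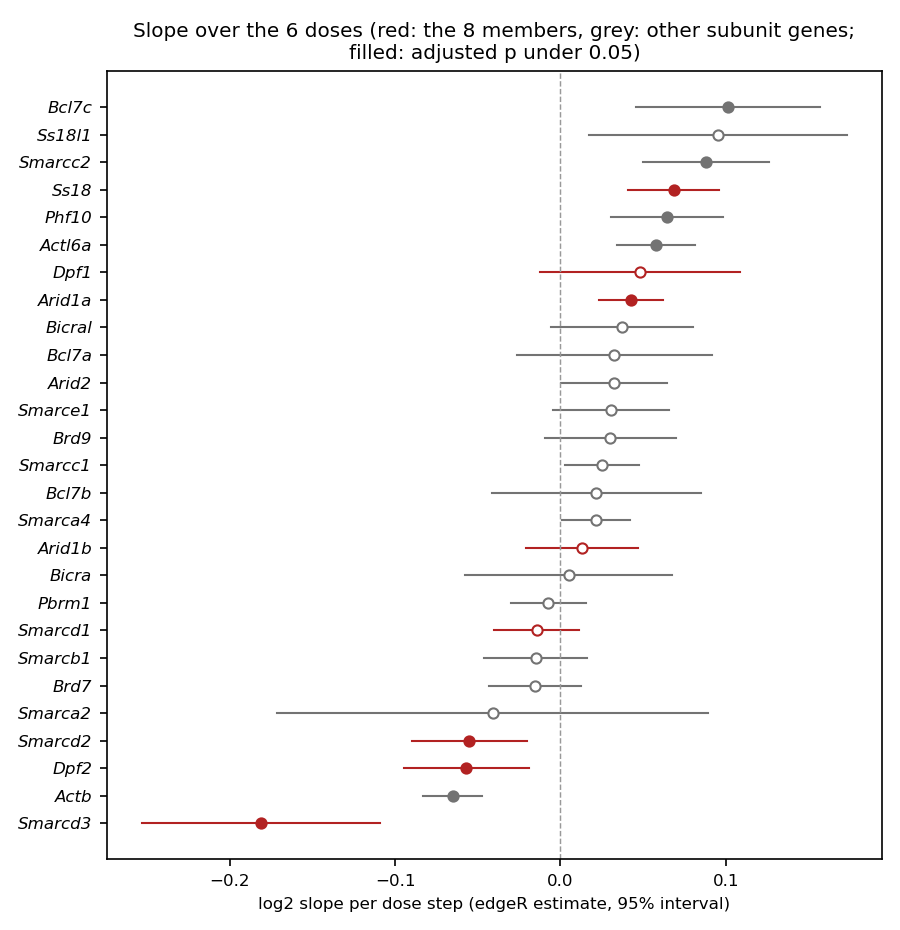
Slope of the log2 level per dose step (horizontal axis, edgeR estimate with 95% interval) for the 8 members over the filter in red, the other mSWI/SNF subunit genes in grey, and filled points at an adjusted p under 0.05. Smarcd3 lies lowest at -0.18 per step, Actb, Dpf2 and Smarcd2 follow, and Ss18 at 0.07 and Arid1a at 0.04 are the filled red points above 0.

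For the 5 genes called over the dose order, the tested genes most like them over the 12 libraries, by Pearson's r of log2(RPKM + 0.1), were found as a description with no test. The points span the 6 doses, and r within a dose was not computed. Smarcd3 was most like Wsb1 (r = 0.948) and Mb21d2 (r = 0.936), and Smarcd2 most like the linker histone gene Hist1h1b (r = 0.964) and Atp5c1 (r = 0.953), which encodes a subunit of ATP synthase. Dpf2 was most like Cd276 (r = 0.891) and Sbf1 (r = 0.888). Arid1a was most like Mdc1 (r = 0.957), which encodes a mediator of the DNA damage response, and Adck4 (r = 0.945). Ss18 was most like Fam53b (r = 0.956) and Wdr89 (r = 0.954). No member was among the genes named here for another. So few genes were kept for each that this says nothing about likeness between members, which was not tested.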

How the data were processed

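RNA-seq counts of 12 libraries were analysed, 2 for each of 6 dTAG13 conditions taken from the sample labels. The authors deposited raw counts per gene, with gene lengths. Per the file headers and labels they were made by Trim Galore, HISAT2 alignment to mm10 and featureCounts 2.0.1 on exons, with both ends mapped, no strand setting and no multi-mapped pairs, so overlapping opposite-strand genes cannot be told apart. The study's methods give a number of cells as library input and the labels an amount of RNA, and which applied was not settled. All 12 value columns were used (0 left out).

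Fits were made in edgeR 4.0.16 (R 4.3.3), with limma 3.58.1 beneath it and DESeq2 1.42.0 as the other tool. Genes that averaged 1 RPKM or more over the libraries entered TMM scaling and the joint quasi-likelihood fit of the 6 conditions (11378 genes, Benjamini-Hochberg adjusted over all). Dpf3, Smarca2 and Actl6b, below the filter, were taken from a fit of the 23204 genes with at least 1 count. The slope fit used the dose order, 0 to 5, as a covariate. The study's likelihood ratio test was an alternative, beside DESeq2, other scalings and filters, a replicate block, pairwise fits, a fold minimum of 1.5, other dose scales and each library left out. Levels at or under 3 counts were read as the floor. Intervals cover counting error only where so named, since reads carry no molecular identifiers.

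The members and lists were chosen with earlier results of these data known. The genes named are the 9 members, Smarca4 and Smarca2, those of 20 other subunit genes called at 100 nM or over the dose order, and the 2 genes most like each member called over the dose order. Chpf2 and the other opposite-strand genes were named after their overlaps were found. The edgeR fits of the conditions and of the slope were tested on simulated counts, with changes placed only in genes over the filter. The other steps were not. Promoter sequences are RefSeq's.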

Additional observations from a re-analysis of the deposited data

How the results depend on the processing

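The counts of the 9 genes called were the same or within 1.5 times under 68 of 79 alternatives other than leaving out a library. With a fold change over 1.5 as well, 2 were called at 100 nM, 1 at 10 nM and 1 over the dose order. DESeq2's Wald test called 1 at 10 nM and 0 at 3 nM and for 3 nM against 0.3 nM. Without normalization factors 1 was called at 10 nM, 0 for 3 nM against 0.3 nM and 3 over the dose order; the pairwise fit called 0 for 3 nM against 0.3 nM, and the 8 libraries of 0, 1, 10 and 100 nM gave 3 over the dose order. The cause of these differences was not tested. The last fit held fewer libraries and also left out the smaller run of index numbers, and these cannot be told apart.

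With a library left out, the number of the 9 genes called ran from 0 to 4 at 10 nM, 2 to 4 at 100 nM, 0 to 1 at 3 nM and for 3 nM against 0.3 nM, and 4 to 6 over the dose order. Without 0 nM replicate 1 it was 0 at 10 nM, 2 at 100 nM and 0 at 3 nM; it was 2 and 1 at 10 nM without replicates 1 and 2 of that dose, 0 at 3 nM without 3 nM replicate 2, and 0 for 3 nM against 0.3 nM without any of its 4 libraries.

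Over all genes, the number called with a library left out ran from 1 to 14 at 0.3 nM, 61 to 301 at 1 nM, 568 to 1157 at 3 nM, 1262 to 2135 at 10 nM, 1769 to 2830 at 100 nM and 209 to 702 for 3 nM against 0.3 nM. A fold change over 1.5 gave 2, 104, 444, 902 and 1274 at 0.3, 1, 3, 10 and 100 nM, 221 for 3 nM against 0.3 nM and 1443 over the dose order. DESeq2's Wald test gave 13, 144, 655 and 1293 at 0.3, 1, 3 and 10 nM and 365 for 3 nM against 0.3 nM. No normalization factors gave 3, 150 and 367 at 0.3 nM, 1 nM and for 3 nM against 0.3 nM. At 0.3 nM, all genes with a count gave 36, and 43 with the filtered genes' factors, an alternative chosen after seeing the data. The fits gave 8, 261, 1069, 2040, 2662, 604 and 3333 for these comparisons in turn.

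Factors over all genes with a count moved the median log2 change at 100 nM by -0.08 (from 0), and 1172 of 3387 calls were then higher, against 1151 of 2662. The share of calls that were higher went from 44.2% to 30.9% at 3 nM and from 45.7% to 30.2% for 3 nM against 0.3 nM, and at 0.3 nM from 0 of 8 to 4 of 36. Without normalization factors it was 20.7% at 1 nM (33.7% with them), 54.6% at 3 nM and 56.9% for 3 nM against 0.3 nM; without the filter but with the filtered genes' factors it was 60.5% over the dose order.

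The sign of a member's change turned in 7 of 640 such values and, with a library left out, in 17 of 756, in none of them at a called value. With factors over all genes, Arid1a at 3 nM against 0.3 nM became -0.030, and Arid1b became -0.034 at 100 nM and -0.0035 per step. Without normalization factors, Dpf1 and Ss18 at 3 nM against 0.3 nM became 0.015 and 0.0073, and Smarcd1 became 0.021 at 10 nM and 0.00014 at 3 nM. With a library left out, the change ran from -0.033 to 0.13 at 10 nM and -0.053 to 0.14 at 100 nM for Arid1b, -0.058 to 0.028 at 3 nM against 0.3 nM for Dpf1, and -0.12 to 0.036 at 0.3 nM and -0.14 to 0.016 at 1 nM for Dpf2. It ran from -3.13 to 4.89 at 0.3 nM and -1.34 to 4.54 at 3 nM against 0.3 nM for Dpf3, -0.26 to 0.11 at 0.3 nM for Smarcd3, and -0.012 to 0.050 at 1 nM and -0.069 to 0.013 at 3 nM against 0.3 nM for Ss18. For Smarcd1 it ran from -0.049 to 0.12 at 0.3 nM, -0.046 to 0.025 at 1 nM, -0.10 to 0.0081 at 3 nM and -0.12 to 0.021 at 100 nM.

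Deviations of same-numbered libraries correlated between -0.095 and 0.093 over the 15 pairs of doses, so these values gave no sign of pairing. Low genes weighed as much as high ones and some pairs cross the runs of index numbers, so pairing is not excluded. A replicate block called 3 of the 9 genes at 10 nM and 3 at 100 nM, losing Arid1a at 10 nM (adjusted p = 0.0529) and Dpf3 at 100 nM (adjusted p = 0.0550, edgeR) and no other call of these, and 2605 genes at 100 nM. By Spearman's rho, 5 of the 10 most alike genes were shared with the choice by Pearson's r. With 2 libraries a condition and 45 to 104 counts for Smarcd3 and 0 to 12 for Dpf3, depth limits these genes most.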
